A study of Mus musculus with 4 samples.

Results

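The genes described here encode the proteins of the cytosolic ribosome. They were chosen by symbol, as every probe set (a group of short probes that reads 1 transcript) with a single gene symbol of the Rpl or Rps series followed by a digit, or with the symbol Rplp0, Rplp1, Rplp2 or Rpsa, without the Rps6k kinases. The rule found 101 of the 22690 probe sets, which stood for 49 of 12394 named genes. Of the 77 canonical ribosomal protein genes, 42 were among them, 22 of 46 for the large subunit and 20 of 31 for the small subunit. A further 6 genes were paralogs, copies whose protein resembles that of a canonical gene. The remaining gene, Rps15a-ps6, carries the name of a pseudogene. Of the other 35 canonical genes, 27 appeared only on probe sets that list several symbols, which the rule leaves out.

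RNA of mammary tissue was measured on 4 Affymetrix mouse arrays, 1 for each of 4 groups, and each RNA was a pool from 5 mice. The groups were mammary tumors of Sca-1 knockout (KO) mice, mammary tumors of wild-type (WT) littermates, mammary glands of Sca-1 KO mice at 6 weeks of age and mammary glands of WT littermates at the same age. All mice were female, nulliparous and on the C57BL/6 background, kept on standard chow. For tumor induction, mice received a subcutaneous injection of MP (15 mg; Depo-Provera, a depot progestin). DMBA, a carcinogen, was then given by gavage once a week, in 4 doses of 1 mg. The labels attach this protocol to every sample, but the group labels of the glands name no treatment. Sca-1 sits on the cell surface and serves to mark progenitor cells. Its own gene was not analysed here, so the genotypes were not checked. RNA was taken from excised tissue, not from separated cell types. The comparisons set KO against WT in each tissue, and tumor against gland in each genotype.

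With 1 array per group there were no replicates, no test could be made, and every difference given sets 1 array against another. The number of arrays limits the precision, and no error between mice or pools can be given. The deposited signals are linear and had been scaled so that each array has the same trimmed mean. Differences were taken as log2(signal + 27.3). This offset makes differences of dim probe sets smaller. A gene was represented by its brightest probe set, that with the highest mean log2 value over the 4 arrays. It was compared where at least 1 array reached the floor of 168.1, the median of all signals. This left 8283 genes in all and 48 of the 49 ribosomal protein genes, since Rps15a-ps6 had signals of 0.6, 6.0, 15.3 and 12.7 on the arrays of KO tumor, WT tumor, KO gland and WT gland. Of the 48 genes, 41 were above the floor on all 4 arrays and 7 on only 1 to 3 arrays, so that these 7 passed through the arrays where they were high. A signal also depends on the probes, so no probe set is set against another in level.

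Each ribosome joins a small subunit, which reads the messenger RNA, to a large subunit, which forms the peptide bond, and most of its proteins are needed in equal amounts. Growing and dividing cells make many ribosomes, and the nucleolus assembles them with the help of a large set of biogenesis factors. Messenger RNAs of ribosomal proteins begin with a run of pyrimidines, the TOP motif, through which mTOR and Larp1 control how much of them is translated. The arrays measured the RNA and not its translation.

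Most ribosomal protein genes differed by similar amounts. Of the 48 genes, 35 had a mean signal of at least 5000, a line drawn after the values were seen, and these 35 stayed within 2-fold in every comparison. The 63 ribosomal protein probe sets past the same line had a median signal of 10513.1 in KO tumor, 9566.5 in WT tumor, 7024.9 in KO gland and 7239.8 in WT gland. Both tumor arrays thus lay above both gland arrays as deposited. Across the 48 genes the interquartile range of the log2 differences was 0.288 for KO tumor minus KO gland and 0.183 for WT tumor minus WT gland, against 1.25 and 1.20 over all genes compared. For KO minus WT it was 0.140 in tumors and 0.105 in glands, against 0.397 and 0.378 over all genes compared. Part of this narrowness went with brightness. For the 153 other genes with a mean signal of at least 5000 the range was 0.591 and 0.640 for tumor minus gland in KO and WT, and 0.240 and 0.182 for KO minus WT in tumors and glands, while for the 35 ribosomal protein genes it was 0.214, 0.158, 0.121 and 0.0689. In glands all 153 also stayed within 2-fold. The line at 5000 did not otherwise match the 2 sets in signal. The highest ribosomal protein signal was 14638.8 in KO tumor, 13988.3 in WT tumor, 10524 in KO gland and 10725.2 in WT gland. The highest of all signals were 15092.3, 13988.3, 11423.1 and 12165.6 in the same order. The part of such high signals in the narrow range was not tested.

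**Figure D1:**
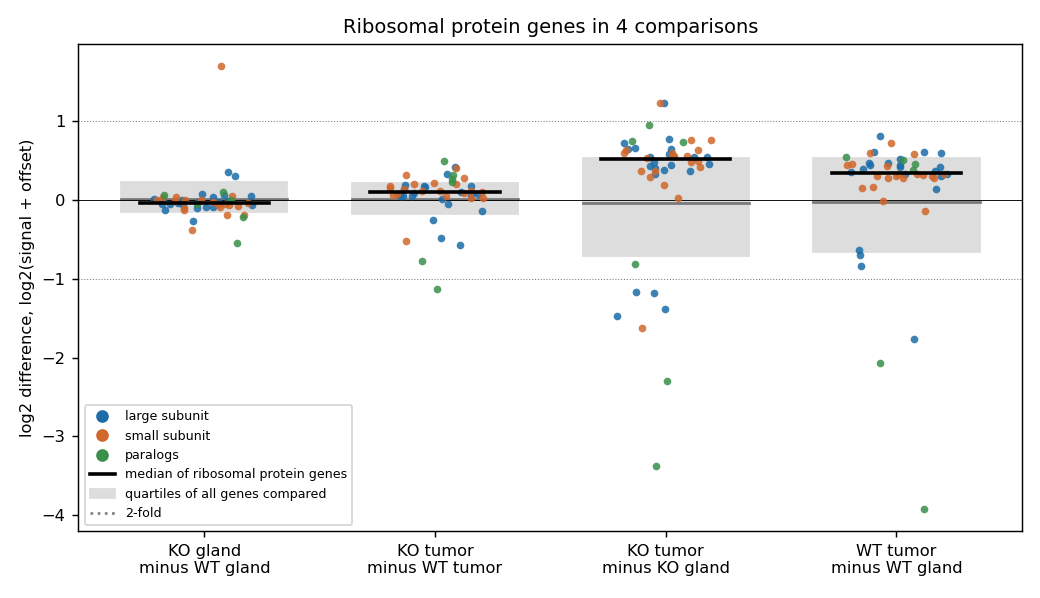
Log2 difference of each of the 48 ribosomal protein genes (points, coloured by subunit) in the 4 comparisons, with their median (black line), the quartiles of all 8283 genes compared (grey band) and 2-fold (dotted lines). Most points lie in a narrow group near their median, and a few dim genes lie far below it in the comparisons of tumor with gland. The place of the group relative to 0 depends on the scaling of the arrays.

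Between tumor and gland, the group was higher in the tumors on the deposited scale, but the direction was not kept under every scaling. The median log2 difference was 0.51 for KO tumor minus KO gland and 0.34 for WT tumor minus WT gland, against -0.04 and -0.03 over all genes compared. In both genotypes 40 of the 48 genes were positive, and 39 were positive in both. Of all 8283 genes compared, 3993 were positive in KO and 3986 in WT. At 1.5-fold, 16 genes were higher and 8 lower in KO tumor than in KO gland, where 23.1% and 28.6% of all genes were, and 6 were higher and 6 lower in WT tumor than in WT gland, where 23.3% and 27.2% of all genes were. Among 153 other genes with a mean signal of at least 5000 the medians were 0.37 in KO and 0.26 in WT, against 0.54 and 0.37 for the 35 ribosomal protein genes past that line.

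The hybridisation controls, bacterial RNAs that were labelled beforehand and added to each sample, shifted in the same way as the ribosomal protein genes. Their 18 probe sets (bioB, bioC, bioD and cre) had a median log2 difference of 0.66 for KO tumor minus KO gland and 0.33 for WT tumor minus WT gland, with 18 and 17 of 18 positive. A cre probe set, for example, had signals of 11441.9 in KO tumor, 9848.7 in WT tumor, 7894.5 in KO gland and 7843.2 in WT gland. With the arrays brought to a common level of these controls, a scaling chosen after seeing the data, the medians of the ribosomal protein genes were -0.15 in KO and -0.01 in WT, while those of all genes compared were -0.70 and -0.40. Relative to all genes the ribosomal protein genes then lay 0.55 and 0.40 higher, close to the 0.55 and 0.37 of the deposited scale. A common factor for each array moves both medians together, so this closeness follows from the scaling and is no separate result. Under quantile normalization, which gives all arrays 1 distribution of signals, the ribosomal protein genes lay 0.05 and 0.09 above all genes. Under cyclic loess, which removes differences that depend on brightness, they lay 0.02 and 0.10 above all genes.

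**Figure D2:**
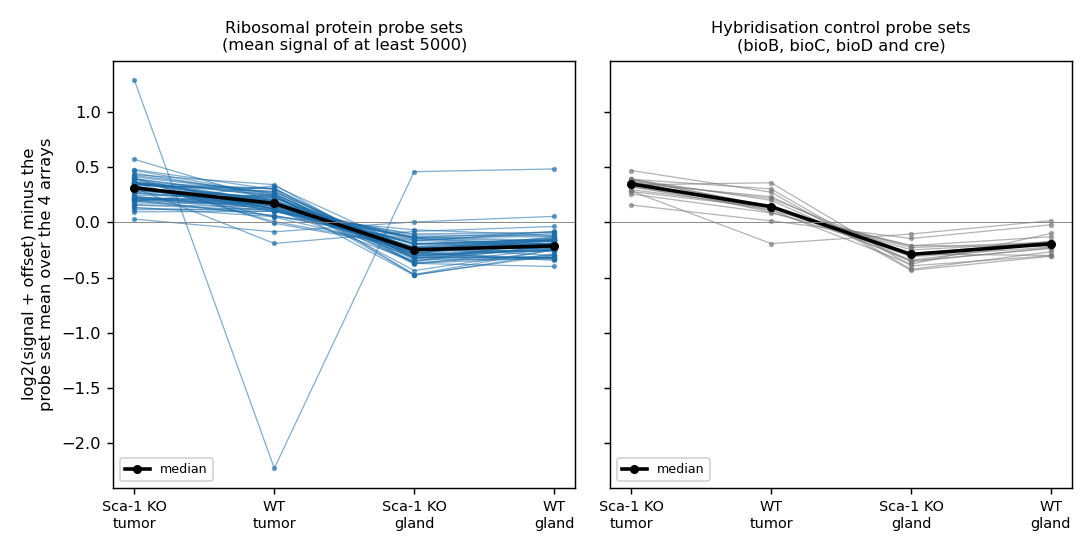
Level on each array, as log2(signal + 27.3) minus the mean of the same probe set over the 4 arrays, for the 63 ribosomal protein probe sets with a mean signal of at least 5000 (left) and the 18 hybridisation controls (right), with the median in black. The medians are 0.31 and 0.35 in KO tumor, 0.17 and 0.14 in WT tumor, -0.25 and -0.29 in KO gland and -0.21 and -0.19 in WT gland. The line that drops in WT tumor is a probe set of Rpl7.

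Other values also differed between the tissues, and their part in the results was not tested. The 3′/5′ ratio of the control probe sets, which increases with RNA degradation, was 1.29, 1.23, 1.61 and 2.35 for beta-actin and 0.876, 0.768, 0.988 and 1.72 for Gapdh in KO tumor, WT tumor, KO gland and WT gland. Both ratios were highest in WT gland and thus also differed between KO and WT gland. Luminal epithelial markers summed to 58486.9 and 52041.2 in KO and WT tumor and 25942.5 and 31263.6 in KO and WT gland (13 of 15 measured, with 2 below the floor on each array). White adipocyte markers summed to 12232.3 and 13740.8 in KO and WT tumor and 79824.6 and 82134.3 in KO and WT gland (13 of 16 measured, 4 below the floor on each tumor array). Markers of cell division summed to 18314.5 and 9219.5 in KO and WT tumor and 5783 and 4123.6 in KO and WT gland (17 of 18 measured, with 1, 6, 7 and 13 below the floor in the same order). No marker of these lists was at 0. In such bulk samples, fewer cells of a type and less RNA per cell cannot be told apart.

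The 2 subunits were described apart. For KO tumor minus KO gland the median log2 difference was 0.47 over 22 large subunit genes and 0.54 over 20 small subunit genes, and for WT tumor minus WT gland it was 0.40 and 0.31. At 1.5-fold, 4 large and 1 small subunit genes were lower in KO tumor than in KO gland, and 4 and 0 in WT tumor than in WT gland. For KO tumor minus WT tumor 17 of 22 large and 19 of 20 small subunit genes were positive, against 4288 of all 8283 genes compared. No difference between the subunits was tested. Rpl8, a large subunit protein near the peptidyl transferase centre, had signals of 8092.3 in KO tumor, 7810.1 in WT tumor, 4892.9 in KO gland and 5125.9 in WT gland, with tumor minus gland differences of 0.72 in KO and 0.60 in WT. Rplp0 and Rplp2 are proteins of the stalk that recruits elongation factors. Rplp0 had signals of 10773.6 in KO tumor, 11918.7 in WT tumor, 7948.2 in KO gland and 7882.3 in WT gland. For WT tumor minus WT gland its difference of 0.59 was among the 5 highest of the group. It was 1 of 2 genes among the 35 that were lower in KO than in WT tumor, and its log2 difference there was -0.15. The other was Rplp2, with signals of 12310.3, 12744.7, 8954.9 and 9412.1 in the same order of groups. Rpsa, a small subunit protein also known as a laminin receptor, had 11976.0 in KO tumor, 10599.9 in WT tumor, 7903.4 in KO gland and 8435.6 in WT gland.

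Some members are known from human disease. Mutations of RPL11, RPL35, RPS10, RPS19 and RPS26 cause Diamond-Blackfan anaemia in people. In these mouse arrays Rps19 had signals of 10353.2 in KO tumor, 9314.9 in WT tumor, 6140.0 in KO gland and 6163.6 in WT gland, and its tumor minus gland differences of 0.75 in KO and 0.59 in WT were above the medians of the group. Rpl35 had 11673.8 in KO tumor, 10422.1 in WT tumor, 6844.1 in KO gland and 7515.4 in WT gland, with differences of 0.77 and 0.47. Rps26 lay lower in the group, with 7471.3, 7363.2, 6104.4 and 5955.3 and differences of 0.29 and 0.30. Rpl11, which also binds Mdm2 and so restrains the breakdown of p53, had differences of 0.66 in KO and 0.44 in WT.

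A few bright genes departed from the rest of the group, which a common factor for each array cannot change. Rps3, which lines the entry of the messenger RNA channel and is also known as a DNA repair protein, had signals of 8808.8 in KO tumor, 8131.3 in WT tumor, 8652.2 in KO gland and 8960.8 in WT gland. Its levels overlapped between tumors and glands, and it lay 0.49 below the median of the group for KO tumor minus KO gland and 0.48 below it for WT tumor minus WT gland. Rps3 is read by a single probe set, so its departure has no second reading. Rps27l lay 0.43 above the median in KO but only 0.16 above it in WT, within the 0.25 used below. Of the 35 bright genes, 32 lay within 0.25 of the median of the group for KO tumor minus KO gland and 30 for WT tumor minus WT gland.

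**Figure D3:**
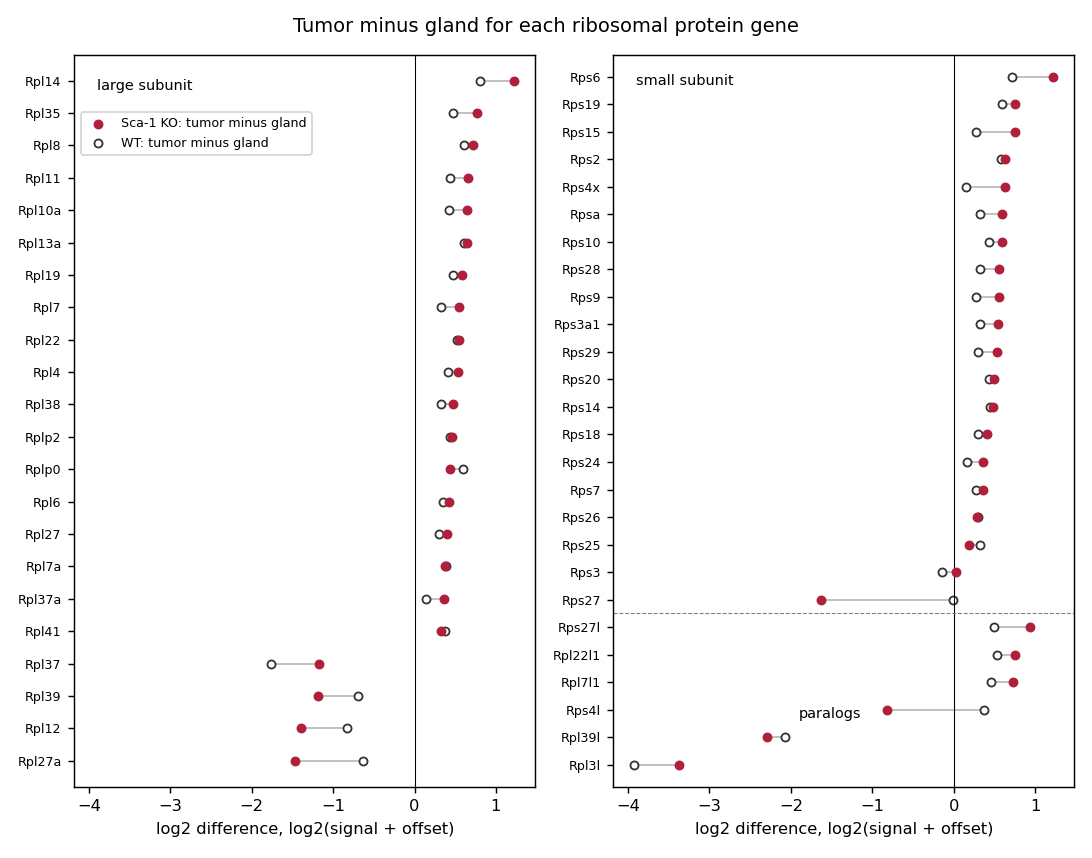
Log2 difference of tumor minus gland for each ribosomal protein gene compared, in Sca-1 KO mice (filled) and WT mice (open), for the large subunit (left), the small subunit and the paralogs (right), as deposited. The KO point lies to the right of the WT point for 37 of 48 genes (4164 of 8283 over all genes compared), and 8 genes are negative in each genotype. The common shift to the right is not kept when the arrays are set to a common level of the hybridisation controls.

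At 2-fold, 2 genes were higher and 7 lower in KO tumor than in KO gland, against 12.4% and 17.9% of all genes compared. In WT tumor minus WT gland no gene was higher and 3 were lower, against 12.9% and 16.6%. These shares of the group were below those of all genes. Most of these genes had 1 array below the floor, and only 2 of 9 in KO and 1 of 3 in WT had both arrays above it. Where 1 array was below the floor, the brighter deposited signal is given as a multiple of the floor. This multiple leaves out the offset and is no lower bound under other scalings.

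Both genes that were higher were core members. Rps6, the small subunit protein phosphorylated by S6 kinase downstream of mTOR, had signals of 1717.2 in KO tumor, 1382.3 in WT tumor, 719.3 in KO gland and 828.6 in WT gland. Both tumor arrays lay above both gland arrays, and Rps6 was 2.34-fold higher in KO tumor than in KO gland and 1.65-fold higher in WT tumor than in WT gland. With the median of all its probe sets, which include one below the floor, its KO difference was under 2-fold. Rpl14, a large subunit protein, had signals of 352.3 in KO tumor, 257.8 in WT tumor, 134.8 in KO gland and 135.3 in WT gland. Both gland signals were below the floor, and the deposited signal in KO tumor was 2.10 times the floor. At the common level of the controls neither Rps6 nor Rpl14 was past 2-fold.

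Of the genes that were lower, Rpl37 was the only one above the floor on every array. Rpl37, a zinc-binding protein of the large subunit, had signals of 1457.6 in KO tumor, 1161.7 in WT tumor, 3311.7 in KO gland and 4000.7 in WT gland. It was 2.25-fold lower in KO tumor than in KO gland and 3.39-fold lower in WT tumor than in WT gland, opposite to most of the group. With arrays at a common median its log2 difference in KO was -0.84, under 2-fold. Its single probe set is of the type that may also read near-identical transcripts, and ribosomal protein genes have many pseudogene copies.

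Rpl12, Rpl27a and Rpl39, all of the large subunit, were past 2-fold lower in KO tumor and had signals near the floor. Rpl27a had 147.9 in KO tumor, 217.4 in WT tumor, 457.4 in KO gland and 352.0 in WT gland, with KO gland at 2.72 times the floor. Rpl12 had 156.6, 192.1, 454.2 and 363.7, with KO gland at 2.70 times the floor. With the offset, Rpl12 was 2.62-fold lower in KO tumor than in KO gland. Rpl39 had 87.0 in KO tumor, 142.9 in WT tumor, 232.7 in KO gland and 249.1 in WT gland, with KO gland at only 1.38 times the floor. With the pooled median as offset Rpl12, Rpl27a and Rpl39 were under 2-fold, with log2 differences of -0.94, -0.99 and -0.65. Rpl39 was also under 2-fold with arrays at a common median (-0.86), under quantile normalization (-0.85) and under cyclic loess (-0.81). With the median of all its probe sets, Rpl27a had -0.84.

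Dim probe sets of bright genes were mostly, but not all, lower in the tumors. Of 15 probe sets with a mean signal under 1000 whose gene had another one past 5000, 11 were negative and 4 positive for KO tumor minus KO gland, and the counts were the same in WT. Most of the 15 were below the floor on all 4 arrays. The lower quartile of all signals was 17.9 in KO tumor, 18.5 in WT tumor, 44.2 in KO gland and 34.6 in WT gland. Low signals were thus lower in the tumors over all probe sets too, not only those of ribosomal protein genes. A dim probe set of Rpl37a was an exception and was higher in the tumors, with log2 differences of 0.52 in KO and 0.82 in WT. Over all 28 ribosomal protein probe sets with a mean signal under 1000, the median log2 difference was -0.99 for KO tumor minus KO gland and -0.27 for WT tumor minus WT gland, whereas over the 63 probe sets past 5000 it was 0.56 and 0.38. Rps24, a small subunit protein, shows both within 1 gene. One of its probe sets had signals of 136.9 in KO tumor, 218.7 in WT tumor, 680.3 in KO gland and 927.6 in WT gland, while its brightest had 10551.5, 9561.1, 8189.7 and 8535.4. For Rps9, a dim probe set had 64.9 in KO tumor, 101.8 in WT tumor, 196.8 in KO gland and 150.6 in WT gland, and the brightest had 9577.5, 8303.2, 6524.8 and 6869.6. For Rpl41, the smallest ribosomal protein, a dim probe set had a log2 difference of -1.44 in KO and -1.21 in WT, against 0.32 and 0.37 for the brightest. A gene seen through 1 dim probe set had no second reading of its direction.

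The paralogs differed from the rest and from each other. Rpl3l, the form of Rpl3 made in striated muscle, had signals of 13.1 in KO tumor, 1.5 in WT tumor, 392.6 in KO gland and 409.2 in WT gland. Both glands were above the floor and both tumors far below it, with KO gland at 2.34 times and WT gland at 2.43 times the floor. Skeletal muscle markers moved with it, and their part in the result was not tested. All 18 were measured, and they summed to 1890.6 in KO tumor, 995.7 in WT tumor, 70240.3 in KO gland and 72785.8 in WT gland, with 16 and 17 of them below the floor in KO and WT tumor and 1 in each gland.

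Rpl39l, a form of Rpl39 best known from testis, was also higher in the glands. Its signals were 27.0 in KO tumor, 65.6 in WT tumor, 238.4 in KO gland and 362.1 in WT gland. The gland signal was 1.42 times the floor in KO and 2.15 times in WT. Its parent Rpl39 had the same order of tumor and gland in both genotypes.

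Rps27l and Rpl22l1, paralogs of Rps27 and Rpl22, differed the other way. The brightest probe set of Rps27l, which is induced by p53, had signals of 7366.1 in KO tumor, 6326.2 in WT tumor, 3820.1 in KO gland and 4468.7 in WT gland. Its log2 differences were 0.94 in KO and 0.50 in WT, and its 3 probe sets spanned 0.87 to 1.05 in KO and 0.24 to 0.50 in WT. Rpl22l1, whose RNA is held down by Rpl22 in mice, had 6110.8 in KO tumor, 4924.6 in WT tumor, 3624.1 in KO gland and 3385.2 in WT gland, a difference of 0.75 in KO and 0.54 in WT. Rpl22 itself had differences of 0.54 and 0.52. Rpl7l1, a relative of Rpl7, had differences of 0.73 and 0.46.

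**Figure D4:**
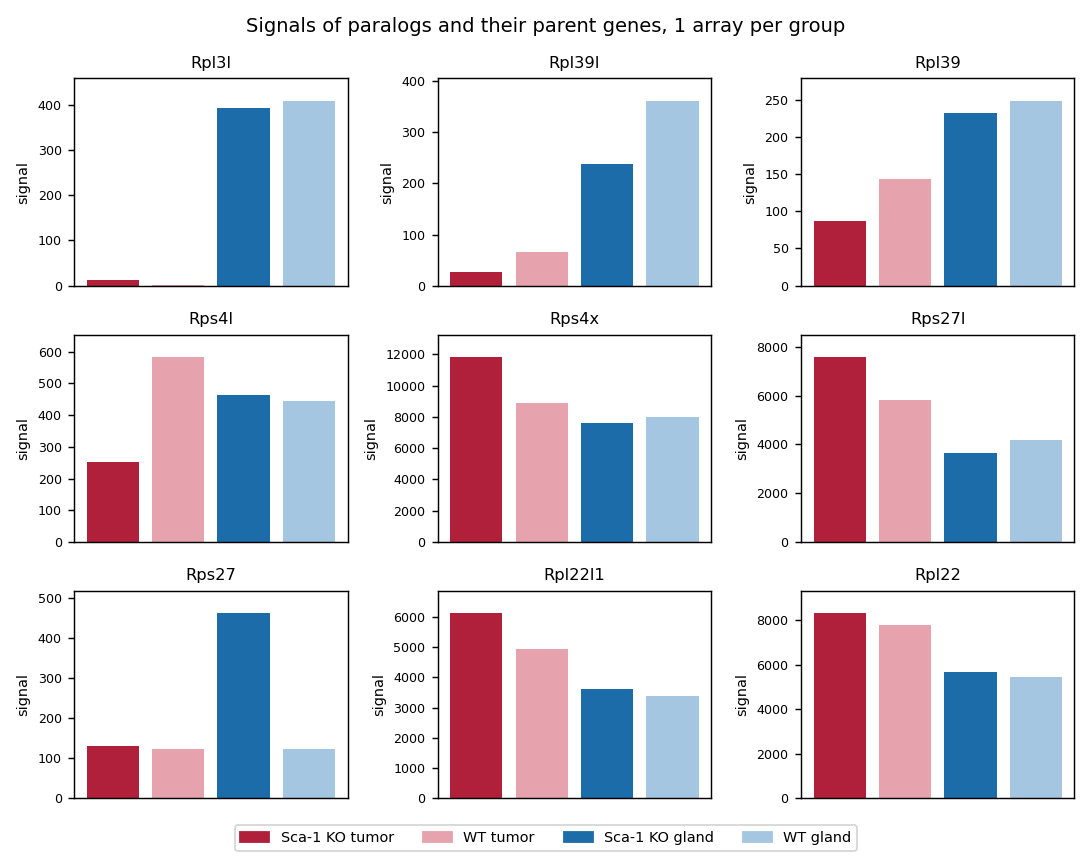
Deposited linear signal on each of the 4 arrays for 5 paralogs (Rpl3l, Rpl39l, Rps4l, Rps27l and Rpl22l1) and the members Rpl39, Rps4x, Rps27 and Rpl22, each panel with its own axis from 0. Rpl3l, Rpl39l and Rpl39 are higher in both glands, Rps27l and Rpl22l1 higher in both tumors, Rps4l is lowest in KO tumor and Rps27 is high in KO gland alone. The panel of Rps27l shows the probe set with 7588.2 in KO tumor.

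Between genotypes, the group as a whole differed little. The median log2 difference was 0.10 for KO tumor minus WT tumor and -0.04 for KO gland minus WT gland, against 0.01 in each over all genes compared. Of all 8283 genes compared, 4288 were positive in tumors and 4323 in glands. Among the 48 ribosomal protein genes 40 were positive in tumors and 13 in glands, and 31 were negative in gland and positive in tumor. The 18 hybridisation controls again had these signs, with medians of 0.18 in tumors (17 positive) and -0.11 in glands (2 positive). At the common level of these controls the medians of the group turned to -0.09 in tumors and 0.07 in glands, with those of all genes at -0.17 and 0.12. Relative to all genes the group was then at 0.07 in tumors and -0.05 in glands, against 0.09 and -0.05 as deposited. Both medians move together under this scaling, so the closeness is no separate result. The genotype difference in tumor minus that in gland had a median of 0.14 over the 48 genes, which turned to -0.17 at the common level of the controls, where all genes were at -0.29, and to -0.03 under cyclic loess, where they were at 0.03. Relative to all genes it was 0.14 as deposited, 0.12 at the common level of the controls and -0.06 under cyclic loess. The values as deposited and at the common control level are close for the same reason.

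At 2-fold, no gene was higher and 1 was lower in KO than in WT tumor, against 2.12% and 1.94% of all genes compared. At 1.5-fold, no gene was higher and 2 were lower, against 6.64% and 5.34%. Rps4l, a paralog of the small subunit gene Rps4x, had signals of 251.0 in KO tumor, 583.6 in WT tumor, 464.0 in KO gland and 444.0 in WT gland. It was 2.20-fold lower in KO than in WT tumor with both arrays above the floor, while the glands differed by 0.06 on the log2 scale. With the pooled median as offset, its log2 difference between the tumors was -0.84, under 2-fold. Its parent Rps4x had 11831.6 in KO tumor, 8910.2 in WT tumor, 7638.0 in KO gland and 8024.9 in WT gland, a log2 difference of 0.41 between the tumors. This was the highest among the 35 bright genes and lay 0.31 above the median of the group.

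Only 4 of the 48 genes, Rps25, Rpl39l, Rpl39 and Rplp2, were lower in KO than in WT in both tissues. Rps25, a small subunit protein that some viral messenger RNAs need for initiation, had signals of 391.0 in KO tumor, 574.3 in WT tumor, 339.0 in KO gland and 452.0 in WT gland, and log2 differences of -0.52 in tumors and -0.39 in glands. Rpl39l differed by -0.77 in tumors, where both signals were below the floor, and by -0.55 in glands. Rpl37 had opposite signs, with 0.32 in tumors and -0.27 in glands.

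In glands, 1 gene was at least 2-fold higher in KO than in WT and none was lower, against 1.11% and 0.254% of all genes compared. The same counts held at 1.5-fold, against 5.78% and 1.26%. The gene was Rps27, a zinc-finger protein of the small subunit, with signals of 131.2 in KO tumor, 122.8 in WT tumor, 462.0 in KO gland and 124.1 in WT gland. It was above the floor on the KO gland array alone, at 2.75 times the floor, and it is read by a single probe set. B and plasma cell markers were also higher in KO gland, where 10 of the 10 compared were positive and the 11 measured summed to 8875.5, against 3482.1 in WT gland, with none at 0. In the tumors they summed to 2041.4 in KO and 1470.9 in WT. Of all 8283 genes compared, 4323 were positive for KO gland minus WT gland. Other lists were higher in KO gland too, with 10 of 10 T and NK cell markers positive (sums of 4680.6 in KO and 2774 in WT gland), 13 of 14 macrophage and neutrophil markers (25657.6 and 18906.3) and 16 of 16 cell division markers (5783 and 4123.6). The part of none of these lists in the Rps27 signal was tested, nor was that of the higher 3′/5′ ratios in WT gland.

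Different probe sets of a gene gave a gauge of the reading error on 1 array pair, though not of the spread between mice. For the 19 ribosomal protein genes with several probe sets above the floor, the spread per probe set (the SD of the difference between the 2 brightest, over the square root of 2) was 0.08 for KO minus WT in tumors and 0.08 in glands, and 0.20 for KO tumor minus KO gland and 0.19 for WT tumor minus WT gland. Over all 2766 such genes it was 0.23, 0.26, 0.57 and 0.64.

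Short runs of letters were counted at the starts of the ribosomal protein genes, and none of them occurred in all of the genes. RefSeq sequences (GRCm38.p6) were found for 42 of the 49 genes. CTTTC on the sense strand, within 15 bases before to 20 after the start, occurred in 11 of the 42 genes (26.2%), against 5.51% of 27025 genes. CCGGAAG on either strand, the core letters of ETS and GABP sites, occurred in 21 of 42 genes (50%) within 250 bases before to 50 after the start, against 9.93%. AAGATGGC, the letters of YY1 sites, occurred on either strand in 4 genes (9.52%), against 3.19%, and TATAAA on the sense strand within 50 bases before the start in 1 gene (2.38%), against 3.15%. Both CTTTC and CCGGAAG were found in 7 genes. The 27025 genes were not matched to the members in expression. Shown are 6 windows with CTTTC and 2 of paralogs without it, each from 45 bases before the start to 20 after it, with CTTTC near the start and CCGGAAG in capitals.
Rpl35 (chr2:39005112-39005176, minus strand): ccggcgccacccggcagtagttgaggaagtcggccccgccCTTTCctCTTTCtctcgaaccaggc
Rpl38 (chr11:114668535-114668599, plus strand): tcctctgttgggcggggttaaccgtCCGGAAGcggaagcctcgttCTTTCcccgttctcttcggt
Rpl7a (chr2:26910762-26910826, plus strand): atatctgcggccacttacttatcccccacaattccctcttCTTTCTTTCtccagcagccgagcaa
Rplp2 (chr7:141447606-141447670, plus strand): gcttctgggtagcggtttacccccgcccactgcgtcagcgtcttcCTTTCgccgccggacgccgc
Rps10 (chr17:27635225-27635289, minus strand): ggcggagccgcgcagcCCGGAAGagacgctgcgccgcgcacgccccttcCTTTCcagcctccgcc
Rps27 (chr3:90213629-90213693, minus strand): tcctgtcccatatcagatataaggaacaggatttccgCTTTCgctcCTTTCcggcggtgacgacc
Rps27l (chr9:66946041-66946105, plus strand): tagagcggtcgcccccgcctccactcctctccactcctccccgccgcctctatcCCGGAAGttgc
Rpl3l (chr17:24727781-24727845, plus strand): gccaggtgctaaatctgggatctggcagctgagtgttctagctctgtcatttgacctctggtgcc

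The printed genes differed in level in different ways. Rpl38, Rplp2 and Rps10, with CTTTC in the window, had log2 differences of 0.48, 0.46 and 0.59 for KO tumor minus KO gland and 0.32, 0.44 and 0.44 for WT tumor minus WT gland, near the medians of the group, while Rps27, with CTTTC 2 times, was high in KO gland alone. Rpl35 and Rpl7a, also with CTTTC, had 0.77 and 0.37 in KO and 0.47 and 0.39 in WT. The 11 genes with CTTTC ranged from -2.29 to 0.77 for KO tumor minus KO gland. Over the genes with CTTTC the median was 0.37 for KO tumor minus KO gland and 0.32 for WT tumor minus WT gland (11 genes), and over those without it 0.55 and 0.33 (31 genes). For CCGGAAG the medians were 0.46 and 0.33 with the letters and 0.54 and 0.32 without (21 genes each). A match of letters is a description and not a binding site.

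Genes that act with the ribosomal proteins were set beside them, with directions as deposited. Of 15 translation factors and other TOP messenger RNAs, 3 were at least 2-fold higher and none lower in KO tumor than in KO gland, with a median log2 difference of 0.56, and 2 were higher and none lower in WT tumor than in WT gland, with a median of 0.44. Of all genes compared, 12.4% were higher and 17.9% lower in KO tumor, and 12.9% and 16.6% in WT tumor, so the counts of genes higher were near the general share. Btf3, which helps to sort nascent chains, had signals of 6677.9 in KO tumor, 6917.3 in WT tumor, 2969.3 in KO gland and 3141.8 in WT gland. Hnrnpa1, an RNA-binding protein, was lowest in this list, with differences of -0.57 in KO and -0.53 in WT. Fau, whose product includes a small subunit protein and whose symbol lies outside the rule, had differences of 0.89 in KO and 0.64 in WT.

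Of 35 ribosome biogenesis genes compared, 6 were at least 2-fold higher and none lower in KO tumor than in KO gland, and 6 were higher and 1 lower in WT tumor than in WT gland, with medians of 0.44 and 0.48. Of all genes compared, 12.4% were higher in KO tumor and 12.9% in WT tumor, so the counts of genes higher were not far from the general share. Of all genes compared, 17.9% were lower in KO tumor and 16.6% in WT tumor, a larger share than in this list. Nop58, a core protein of the box C/D particles that guide methylation of ribosomal RNA, had signals of 1215.5 in KO tumor, 1014.4 in WT tumor, 219.2 in KO gland and 195.7 in WT gland. Fbl, the methyltransferase of these particles, had 2751.8 in KO tumor, 2555.9 in WT tumor, 918.1 in KO gland and 1341.9 in WT gland. Wdr43 was the gene of this list that was lower, with 447.3 and 310.6 in KO and WT tumor and 866.4 and 830.4 in KO and WT gland.

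Of 13 genes that control ribosome synthesis, none was at least 2-fold higher and 2 were lower in tumor than in gland in each genotype, with a median of -0.19 in both. Of all genes, 17.9% were lower in KO tumor and 16.6% in WT tumor, so the counts of genes lower were near the general share. Those higher made up 12.4% and 12.9% of all genes. Eif4ebp1, the translation repressor that mTOR inactivates, had signals of 1103.3 in KO tumor, 1100.2 in WT tumor, 3624.7 in KO gland and 4536.4 in WT gland. Myc, a transcription factor that drives ribosome synthesis, had 889.5 in KO tumor, 485.1 in WT tumor, 570.9 in KO gland and 356.5 in WT gland, and was higher in KO than in WT by 0.84 in tumors and 0.64 in glands on the log2 scale. The 74 proteins of the mitochondrial ribosome had medians of 0.39 for KO tumor minus KO gland and 0.24 for WT tumor minus WT gland.

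**Figure D5:**
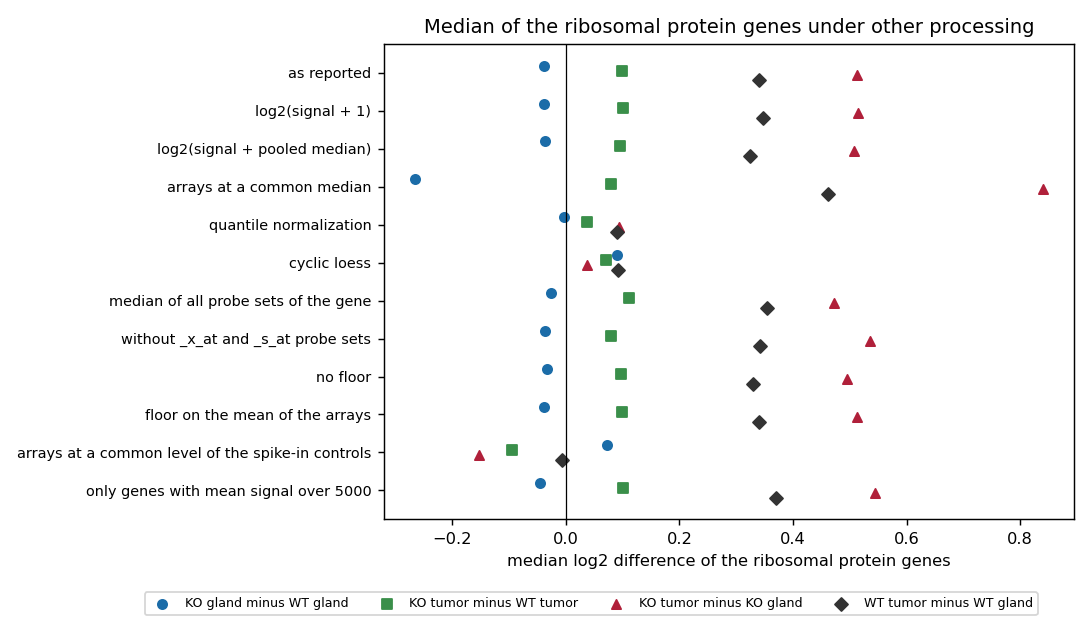
Median log2 difference of the ribosomal protein genes in the 4 comparisons as reported and under 11 other settings of the processing, 1 row each. The medians of tumor minus gland lie between 0.04 and 0.84 under the 9 planned settings and below 0 when the arrays are set to a common level of the hybridisation controls, and those of KO minus WT lie between -0.26 and 0.11.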

How the data were processed

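RNA of 4 groups was measured on 4 mouse Affymetrix arrays, 1 pool of 5 mice each, labelled with biotin per the labels' protocols. The intensity values deposited by the authors hold 1 linear signal per probe set. Their mean per array, leaving out the lowest and highest 2%, was near 500 on all 4 arrays, so they had been scaled. The software is not given in these sources. Gene symbols came from the platform annotation, updated by identifier for 20364 probe sets (20393 had 1 symbol, 691 several and 1606 none listed). The offset 27.3 is the lower quartile and the floor 168.1 the median of all values. Python 3.11.15, pandas 2.3.3 and limma 3.58.1 (for quantile normalization and cyclic loess) were used. The procedure was tested on simulated data. No test was possible with 1 array per group.

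Members and gene lists were chosen with earlier results of these data known. The rule for named genes took the 5 highest and 5 lowest members of each comparison, members past 2-fold, paralogs and their parents, Rplp0, Rplp2, Rpsa, Rps6 and Rpl11, members whose probe sets disagree, Fau, and the 2 highest and 2 lowest of each other list. Not all of these are described. Rps3, Rps10, Rps24, Rpl37a, Rps26, Rpl38, Rpl7a and Rps15a-ps6 and the line at 5000 were chosen after the values were seen.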

Additional observations from a re-analysis of the deposited data

How the results depend on the processing

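Each median and count was recomputed under 9 planned settings and under 2 chosen after seeing the data, the common level of the hybridisation controls and the restriction to genes with a mean signal of at least 5000. Of 1465 values of single genes, 1408 moved by less than the spread per probe set over all genes and 57 by more, and 118 changed sign. That spread is a wide measure, at 0.57 for KO tumor minus KO gland against 0.20 for the ribosomal protein genes. Of 158 values of members past 2-fold as reported, 0 changed sign and 15 were under 2-fold. Settings that alter only the floor cannot change the value of a single gene, so these counts overstate the stability. The median for KO tumor minus KO gland was 0.84 with arrays at a common median, 0.0945 under quantile normalization, 0.0367 under cyclic loess and -0.15 at the common control level. For WT tumor minus WT gland these were 0.46, 0.0896, 0.0913 and -0.00651. For KO minus WT in glands the median was -0.26 with arrays at a common median, 0.0909 under cyclic loess and 0.0728 at the common control level, and in tumors it was -0.0944 at the common control level. The genotype difference in tumor minus that in gland was 0.34, 0.0197, -0.0293 and -0.17 in the same order of the 4 scalings. These scalings moved the median of all genes compared, for KO tumor minus KO gland to 0.31 with arrays at a common median and -0.70 at the common control level. Counts past 2-fold moved as follows. With log2(signal + 1), 1 gene was higher and 2 lower in KO than in WT tumor. With the pooled median as offset, none was lower there, and 1 was higher and 4 lower in KO tumor than in KO gland. With arrays at a common median 9 were higher in KO tumor than in KO gland. At the common control level 0 were higher there and 5 were lower in WT tumor than in WT gland. Among genes with a mean signal of at least 5000 all counts were 0. The cause was not tested. No paired analysis was possible because each group has 1 array, and no replicate could be left out. Dim probe sets, near the floor of 168.1, limit what can be said of the genes that depend on them.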

Other observations

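One probe set of Rpl7, a large subunit protein, had signals of 11067.2 in KO tumor, 944.4 in WT tumor, 6225.1 in KO gland and 6332.1 in WT gland. The other 2 probe sets of Rpl7 had 10514.6 and 9177.1 in WT tumor. Their log2 differences for KO tumor minus WT tumor were 0.09 and 0.18, against 3.51 for the probe set with 944.4. The probe set with 9177.1 represented the gene.

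The control probe set for the 5′ end of 18S ribosomal RNA had signals of 6879.8 in KO tumor, 6329.8 in WT tumor, 219.6 in KO gland and 195.6 in WT gland, and that for its 3′ end had 3386 and 2041.3 in KO and WT tumor and 727.3 and 655.1 in KO and WT gland. The gap between tumor and gland was thus smaller at the 3′ end. Whether these control signals follow the amount of ribosomal RNA in the tissue was not tested.

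The 102 probe sets that list a ribosomal protein symbol among several, which the rule left out, had median log2 differences of 0.11 for KO tumor minus WT tumor, -0.02 for KO gland minus WT gland, 0.50 for KO tumor minus KO gland and 0.38 for WT tumor minus WT gland. Over the 101 member probe sets the medians were 0.11, -0.03, 0.52 and 0.33.

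Of 4 probe sets of Rpl13a, which in human cells is also part of a complex that silences inflammatory messenger RNAs, a dimmer one had signals of 3290.7 in KO tumor, 2051.3 in WT tumor, 1255.1 in KO gland and 1181.7 in WT gland, and the brightest had 14638.8, 13988.3, 9360.0 and 9169.7. For KO tumor minus WT tumor their log2 differences were 0.67 and 0.07.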
